A study of Mus musculus with 6 samples.

Results

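The comparison described here sets colonic macrophages (MΦs) of 1 *Il10rb*-/- mouse against those of 1 *Il10rb*+/- mouse at 3 weeks of age, near weaning, and the *Il10rb*+/- mouse is called the control. Of the 14097 genes measured in the series, the 10312 with 50 or more normalized counts in either library were kept. Both mice were untreated and of the 129SvEv strain, the study used littermates housed together, and the control carries 1 deleted copy of *Il10rb*, so an *Il10rb*+/+ animal is not part of the comparison. The deletion is present in every cell of the *Il10rb*-/- mouse, and not in MΦs alone. The sorted population was P3/P4, the mature MΦs of the lamina propria, gated as CD45+CD11b+CD11cintCD103-CD64+Ly6C-MHCII+. RNA-seq was carried out on 6 libraries in all, 1 for each genotype at 1, 3 and 12 weeks. With 1 library per genotype the 3-week difference has no replicate check. No p-value is therefore given, and each value describes these libraries.

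IL10Rβ is the chain that the IL-10 receptor shares with the receptors for IL-22 and the type III interferons. In MΦs, IL-10 acts through this receptor and STAT3 to restrain the genes that microbial products turn on, and mice without it develop colitis. Interferons act on MΦs through promoter elements called GAS and ISRE, and interferon-γ in particular turns on guanylate-binding proteins, immunity-related GTPases, MHC class I genes and the ligands of the lymphocyte receptor CXCR3. These are the gene groups around which the results are ordered.

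The *Il10rb*+/- library was the shallowest of the series, with 6700337 reads on genes against 19128951 in the *Il10rb*-/- library, 2.85 times as many. Normalized counts are reads divided by a factor per library, so the threshold of 50 corresponds to 20.5 reads in the *Il10rb*+/- and 56.9 reads in the *Il10rb*-/- library. *Il10rb* itself (ENSMUSG00000022969, on chromosome 16 from 91406164 to 91425834; all coordinates refer to GRCm38, which is mm10) had 386 reads in the control and 28 in the *Il10rb*-/- library. Its 10 neighbours on chromosome 16 lay between log2 ratios of -0.70 (*Dnajc28*) and 0.28 (*Donson*), and among them the interferon receptor chains *Ifnar1*, *Ifngr2* and *Ifnar2* had 0.08, 0.02 and -0.30. The genes that mark the sorted cells had reads in both libraries. Of the 10 kept, 2 were over 2-fold higher and 0 lower, with log2 ratios from -0.59 to 4.87. *Csf1r*, the receptor for the MΦ growth factor CSF1, had 65622 normalized counts in control and 60398 in *Il10rb*-/- MΦs, and *Adgre1*, which encodes F4/80, had 20595 and 20883. Neither of these is part of the gate. *Itgae*, which encodes the CD103 that the gate excludes, had 7.30 and 7.04. *Ly6c2*, whose product the gate also excludes, had 4 reads in control but 324 in *Il10rb*-/- MΦs. The other gene over 2-fold higher was *Itgax*, which encodes the CD11c of the gate. Its counts are given with the complement genes below. The Y-linked genes together had 5 and 11 reads and *Xist* 2140 and 4486.

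Most genes differed little between the genotypes. The log2 ratio of *Il10rb*-/- over *Il10rb*+/- had a median of 0.02 over the genes kept, and 9985 of them (96.8%) were within 2-fold. Over 3-fold, 78 genes (0.756% of the 10312) were higher and 27 (0.262%) were lower in *Il10rb*-/- MΦs. Over 2-fold, 194 (1.88%) were higher and 133 (1.29%) were lower. These shares are the background for the counts given below for each group of genes. Beside each ratio stands its 95% interval, computed exactly by the Clopper-Pearson method and limited to counting error. The whole interval lay past 3-fold for 38 genes higher (0.369%) and 5 genes lower (0.0485%). Of the 78 genes, 38 were below 50 normalized counts in the control, and of the 27, 24 were below it in the *Il10rb*-/- library. A gene of this kind entered the comparison only through the library in which it was high, so these counts describe the filter as well as the cells. At the threshold itself, *Zfp580* was just inside with 50.1 normalized counts in its higher library and *Slfn4* just outside with 49.2.

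**Figure D1:**
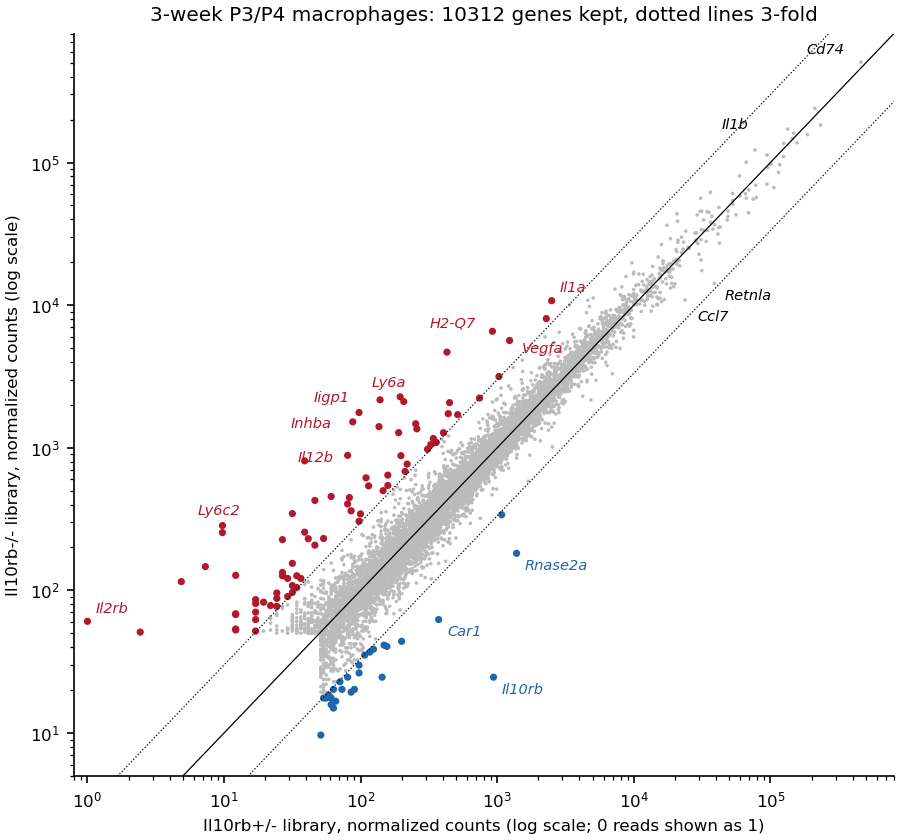
Normalized counts of the 10312 genes kept in the *Il10rb*+/- library (horizontal, log scale) and the *Il10rb*-/- library (vertical, log scale) at 3 weeks; each point is a gene, the solid line marks equal values and the dotted lines 3-fold. The 78 genes over 3-fold higher (red) lie above the upper dotted line, those near 0 control reads at the far left, while *Cd74* stays near the solid line and *Il10rb* stands apart among the 27 lower genes (blue).

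The genes that led the higher side are interferon-induced genes, Ly6 genes, MHC class I genes and a set of mediators. They were ranked by the end of the interval nearest to 0, which lowers the rank of genes with few reads but does not remove them. Of the 15, *Ly6i*, *Ly6c2*, *Adora2a*, *Plet1os*, *Il2rb* and *Gm15056* were below 50 normalized counts in the control. They were kept only through the *Il10rb*-/- library, so their direction was set by the filter. *Iigp1* (ENSMUSG00000054072, chromosome 18 from 60376027 to 60392634), a GTPase that acts on the vacuoles of intracellular pathogens, was first, with 40 reads in control and 2009 in *Il10rb*-/- MΦs and a log2 ratio of 4.18 (interval 3.73 to 4.67). *Inhba* (ENSMUSG00000041324, chromosome 13 from 16011851 to 16031621), the subunit from which activin A is built, had 36 and 1728 reads (4.12, interval 3.64 to 4.64). *Adora2a* (ENSMUSG00000020178, chromosome 10 from 75316877 to 75334784), an adenosine receptor that raises cyclic AMP, had 4 and 289 reads (4.71, interval 3.33 to 6.59). For *Adora2a* and *Ly6c2* the wide intervals follow from the 4 reads in the control.

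Next came *Cxcl9*, *Irg1*, *Serpina3f* and *Il12b*, each past 10-fold, and the MHC class I genes *H2-Q8* and *H2-Q7*. *Serpina3f* (ENSMUSG00000066363), a serine protease inhibitor, had 136 and 1407 normalized counts (log2 ratio 3.37). *Il2rb*, the β chain of the IL-2 and IL-15 receptors, had 0 and 69 reads, a rise of at least 8.31-fold when 3 reads are taken as the floor for the control. *Plet1os*, with 3 and 167 reads (4.33, interval 2.76 to 6.62), overlaps *Plet1*, with 19 and 486 reads. The strand setting of the counting is not given in the sources used here, so reads of such a pair cannot be told apart. The predicted gene *Gm15056* had 2 and 131 reads (4.56, interval 2.68 to 7.63).

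**Figure D2:**
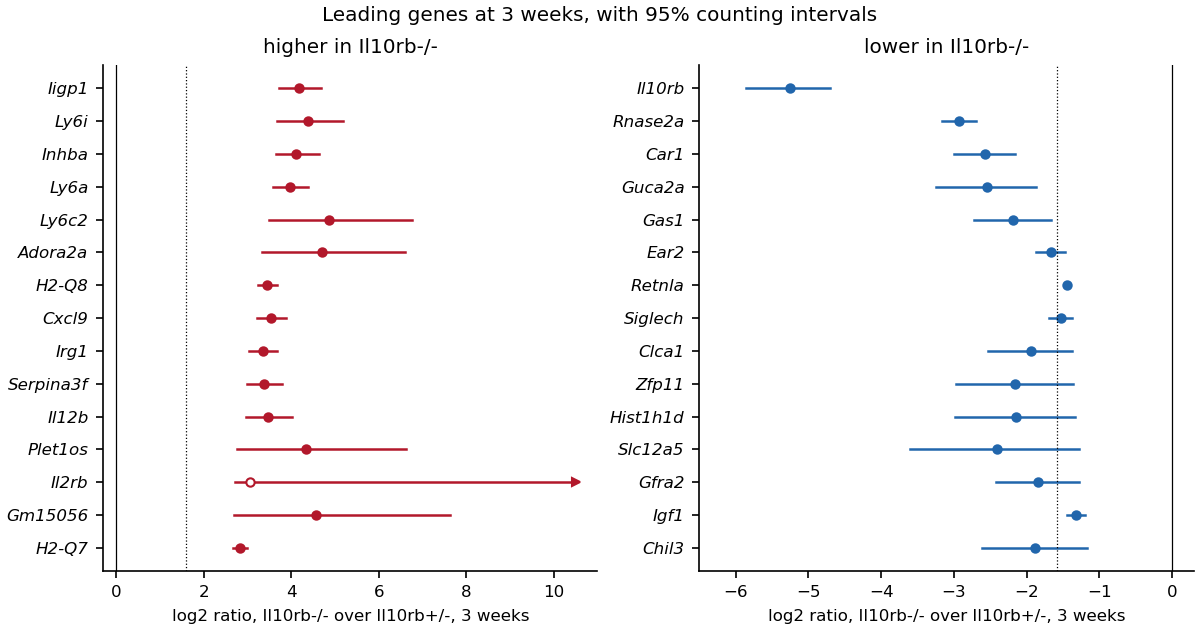
Log2 ratio (*Il10rb*-/- over *Il10rb*+/-, 3 weeks) of the 15 leading genes on each side, with 95% counting intervals as lines; the dotted line marks 3-fold, the open circle of *Il2rb* is a lower bound because the control had 0 reads, and its arrow an interval without an upper end. On the left every interval lies past 3-fold, and on the right those of *Il10rb*, *Rnase2a*, *Car1*, *Guca2a* and *Gas1* do.

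Several of the 78 genes are neighbours. Within 500 kb of one another lie *Ly6i*, *Ly6a* and *Ly6c2* on chromosome 15 (74979534 to 75111970), *H2-Q5*, *H2-Q8*, *H2-Q7* and *H2-Q10* on chromosome 17 (35394126 to 35474563), and *Gbp5*, *Gbp2* and *Mir6381* on chromosome 3 (142493978 to 142638008). *Nlrc5*, *Ccl22* and *Ccl17* share 378 kb of chromosome 8, and *Cxcl9* and *Cxcl11* share 44.1 kb of chromosome 5. *Gm14023* and *Il1a* lie within 12.6 kb of chromosome 2. *Mir6381* lies inside *Gbp2*, and *Gm14023* overlaps *Il1a*, so these too are pairs whose reads cannot be told apart. The Ly6, H2-Q and Gbp genes have near-identical copies, so the split of reads among the members of each family is uncertain.

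The interferon-inducible GTPases were higher as a group. This list holds the guanylate-binding proteins and immunity-related GTPases, which attack the membranes around intracellular microbes. All 17 members kept were higher in *Il10rb*-/- MΦs, 10 of them over 2-fold and 6 over 3-fold, and the median log2 ratio was 1.07 against 0.02 over all genes kept. Members below 50 normalized counts in the control, such as *Gbp6* and *Tgtp2*, were kept only through the *Il10rb*-/- library. Their direction was thus set by the filter. With 50 normalized counts in both libraries the median was 0.99. After *Iigp1*, the largest ratios belonged to *Gbp6*, *Tgtp2* and *Gbp2*. *Gbp6* had 26.8 normalized counts in control and 227 in *Il10rb*-/- MΦs (3.08, interval 2.22 to 4.10). *Tgtp2* had 38.9 and 256 (2.72, interval 1.99 to 3.54). *Gbp2* had 253 and 1474 (2.54, interval 2.26 to 2.84). Other members shifted less: *Gbp4* had 1528 and 4115 (1.43), *Gbp2b* 2597 and 5466 (1.07), and *Gbp7* 4152 and 5484 (0.40). *Gbp7* was the lowest of the 17, so the list spans log2 ratios from 0.40 to 4.18.

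Promoter sequences of the GTPases are shown because most of the members with a known start hold elements through which interferons act. The 250 bases upstream of each RefSeq start on GRCm38.p6 were searched on both strands for GAS (TTCNNNGAA), ISRE (GAAANNGAAA) and an NF-kappaB element (GGGANTTTCC). Each is given 5′ to 3′ on the strand of its gene as the stretch of 130 bases before the start, with GAS and ISRE matches in capitals, and none overlaps an exon of the GENCODE annotation; *Igtp* and *Irgm2* are neighbours on chromosome 11, *Tgtp2* is on the same chromosome, and *Serpina3f*, a leading gene of another family, and the antiviral gene *Rsad2* are set beside them.
Tgtp2, chr11:49064213-49064342 minus strand: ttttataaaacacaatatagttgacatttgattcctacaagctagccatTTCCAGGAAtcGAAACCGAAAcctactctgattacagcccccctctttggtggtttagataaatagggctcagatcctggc
Igtp, chr11:58199426-58199555 plus strand: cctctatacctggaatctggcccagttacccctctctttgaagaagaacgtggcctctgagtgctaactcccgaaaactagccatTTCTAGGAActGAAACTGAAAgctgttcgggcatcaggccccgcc
Irgm2, chr11:58214847-58214976 plus strand: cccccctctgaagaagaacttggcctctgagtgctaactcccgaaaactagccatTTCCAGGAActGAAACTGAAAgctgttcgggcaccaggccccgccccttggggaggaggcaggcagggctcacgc
Gbp7, chr3:142530206-142530335 plus strand: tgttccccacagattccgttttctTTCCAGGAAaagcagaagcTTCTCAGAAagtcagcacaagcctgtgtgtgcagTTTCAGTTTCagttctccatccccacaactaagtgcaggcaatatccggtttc
Rsad2, chr12:26456453-26456582 minus strand: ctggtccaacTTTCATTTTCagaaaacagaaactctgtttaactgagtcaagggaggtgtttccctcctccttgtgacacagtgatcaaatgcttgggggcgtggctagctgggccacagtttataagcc
Serpina3f, chr12:104214414-104214543 plus strand: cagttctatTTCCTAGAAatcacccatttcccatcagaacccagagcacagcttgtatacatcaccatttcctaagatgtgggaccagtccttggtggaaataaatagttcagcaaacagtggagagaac

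In *Tgtp2*, *Igtp* and *Irgm2* a GAS match is followed closely by an ISRE match. The ISRE begins 70 bases before the start in *Tgtp2*, 34 in *Igtp* and 64 in *Irgm2*. *Gbp7* holds 2 GAS matches, 106 and 87 bases before its start, and an ISRE on the opposite strand at 53. Of the 10 GTPases with an entry in the promoter table, 9 (90%) held an ISRE match and 5 (50%) a GAS match. Over the 27025 genes of the table, 3.46% held an ISRE and 8.13% a GAS match, and over the 8074 genes kept that have an entry these shares were 3.49% and 7.28%. Of the 52 genes over 3-fold higher with an entry, 8 (15.4%) held an ISRE and 6 (11.5%) a GAS match, so most of them held neither, and 1 held the NF-kappaB element. Of the 16 genes over 3-fold lower with an entry, 1 held an ISRE and 1 a GAS match. A match is a run of letters and not a measured binding site, and the same pair of elements stood before genes with ratios as far apart as those of *Tgtp2* (2.72), *Igtp* (0.90) and *Irgm2* (0.82).

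MHC class I genes and the machinery that loads them with peptide were higher throughout. All 22 members kept were higher, 8 over 2-fold and 3 over 3-fold, with a median of 0.67. *H2-Q8* (ENSMUSG00000073409) had 428 normalized counts in control and 4683 in *Il10rb*-/- MΦs (3.45, interval 3.23 to 3.68), and *H2-Q7* (ENSMUSG00000060550) had 922 and 6555 (2.83, interval 2.68 to 2.98). *Nlrc5* (ENSMUSG00000074151), the transactivator of MHC class I genes, had 158 and 643 (2.02, interval 1.66 to 2.41). *Tap1*, a subunit of the transporter that carries peptides to class I molecules, had 1312 and 3656 (1.48). The classical genes shifted by less: *H2-K1* had 17465 and 36315 (1.06) and *H2-D1* 30881 and 56329 (0.87), while *B2m*, the shared light chain, had 36410 and 61896 (0.77). The immunoproteasome subunits *Psmb8*, *Psmb9* and *Psmb10* lay at 0.67, 0.67 and 0.61.

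MHC class II genes, by contrast, were close between the libraries. None of the 13 members kept was over 2-fold apart, and the median was 0.16. *H2-Ab1* had 211504 and 239990 normalized counts (0.18), *Cd74*, the invariant chain, 460282 and 506153 (0.14), and *Ciita*, the class II transactivator, 7101 and 8253 (0.22). Class II was also part of the gate by which the cells were sorted.

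Antiviral interferon-stimulated genes were higher in 28 of 30 cases, but only 5 were over 2-fold. Their median was 0.55. *Rsad2*, which encodes viperin, had 404 and 1276 normalized counts (1.66, interval 1.43 to 1.90) and was the only one of the list over 3-fold. The ratios of the RNA-sensing 2′-5′ oligoadenylate synthetase family were spread widely. *Oas1g*, which is not in the list, had 24.3 and 87.9 (1.85, interval 0.91 to 2.96), *Oasl2* had 153 and 356 (1.22) and *Oas3* 43.8 and 93.2 (1.09), while *Oas2* had 204 and 186 (-0.14, interval -0.51 to 0.24), within counting error. *Isg15* had 1609 and 2343 (0.54) and *Mx1* 239 and 314 (0.40).

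The signalling chain upstream of these genes was mostly within 2-fold. Of 20 members, 15 were higher, 3 of them over 2-fold and 1 over 3-fold, and 0 were over 2-fold lower. The log2 ratios ran from -0.30 to 1.77, with a median of 0.23. Among the 3, *Batf2* (ENSMUSG00000039699) had 141 normalized counts in control and 351 in *Il10rb*-/- MΦs (1.31, interval 0.91 to 1.74), and *Irf7* had 316 and 661 (1.06, interval 0.79 to 1.34). Both are themselves induced by interferons. The receptor chains *Ifngr1* and *Ifngr2* had log2 ratios of -0.08 and 0.02, *Irf1* had 12387 and 13100 normalized counts (0.08), and *Socs3*, a target of STAT3, had 42954 and 35346 (-0.28).

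**Figure D3:**
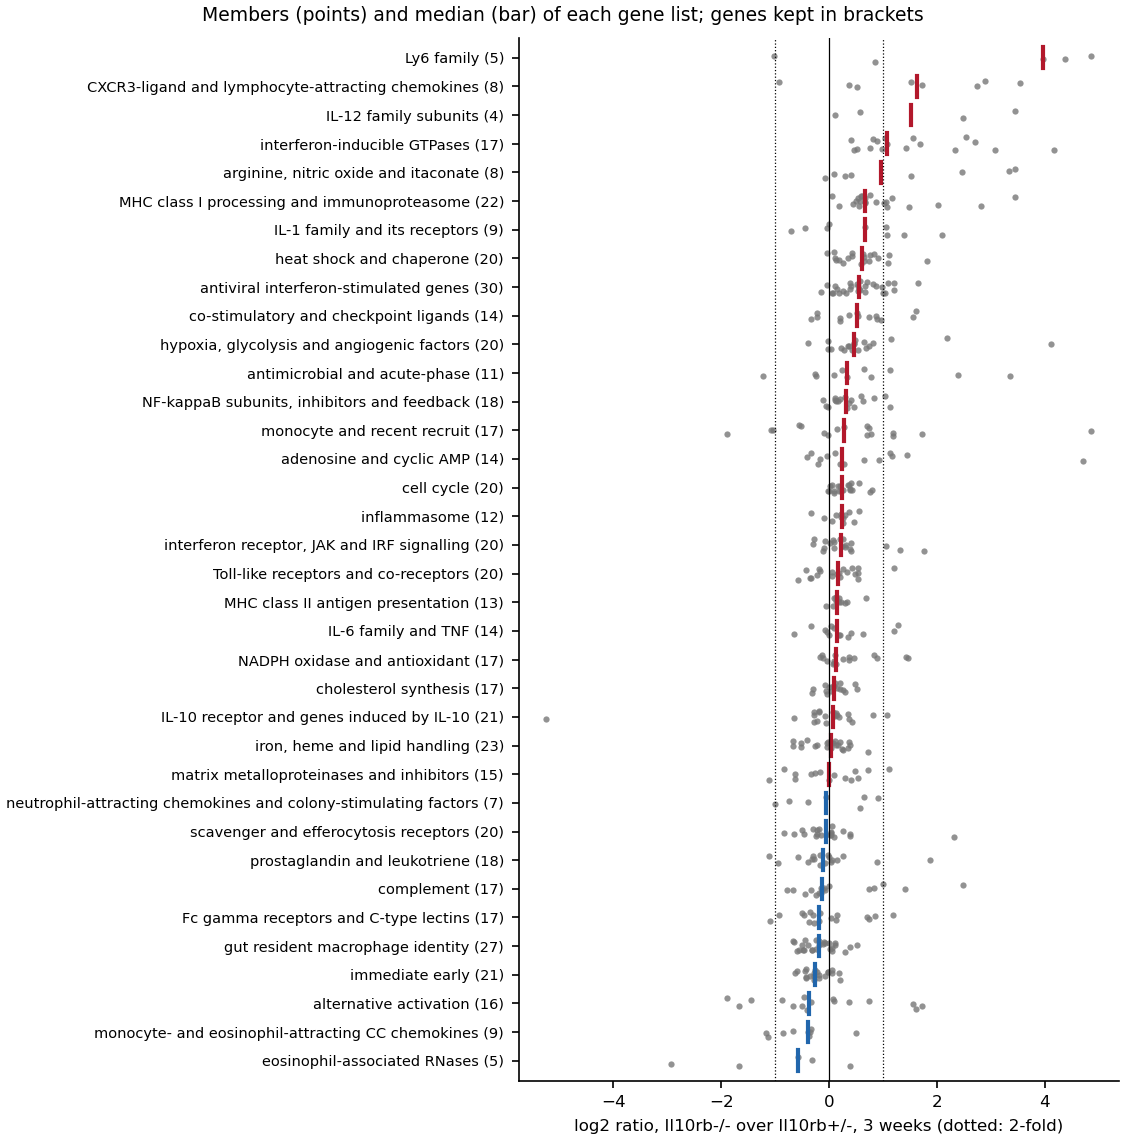
Log2 ratio (*Il10rb*-/- over *Il10rb*+/-, 3 weeks) of each member kept (points) and their median (bar) in 36 pathway lists, ordered by median, with the number of members kept in brackets and dotted lines at 2-fold. The Ly6, CXCR3-ligand, IL-12 and GTPase lists stand at the top with medians of 1.07 or more, and the medians of the other lists lie between -0.57 and 0.97.

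Chemokines split by the cells they attract. Of the 8 genes of the lymphocyte-attracting list kept, 5 were over 2-fold higher and 0 lower (median 1.63), while of the 9 monocyte- and eosinophil-attracting CC chemokines 0 were over 2-fold higher and 2 lower (median -0.39). *Cxcl9* (ENSMUSG00000029417, chromosome 5 from 92321347 to 92328079), a CXCR3 ligand, had 195 normalized counts in control and 2277 in *Il10rb*-/- MΦs (3.55). *Cxcl11*, another CXCR3 ligand, had 60.8 and 456 (2.90, interval 2.33 to 3.55). *Cxcl10*, the remaining ligand of this receptor, had 9223 and 11871 (0.36), so the ligands of 1 receptor did not shift by the same amount. The CCR4 ligands *Ccl22*, with 190 and 1277 (2.75, interval 2.42 to 3.10), and *Ccl17*, with 36.5 and 121 (1.73, interval 0.96 to 2.61), were higher together. *Ccl5* had 185 and 531 (1.52). *Cxcl13*, which attracts B cells, was the only member lower, with 126 and 66.8 (-0.92).

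Among the CC chemokines that act on monocytes through CCR2, *Ccl7* had 23751 normalized counts in control and 10882 in *Il10rb*-/- MΦs (-1.13, interval -1.16 to -1.09). *Ccl12* had 4850 and 2163 (-1.16, interval -1.25 to -1.08) and *Ccl2* had 31419 and 17455 (-0.85). These 3 genes are neighbours on chromosome 11, all were lower, and the fall of *Ccl7* and *Ccl12* was past 2-fold. *Ccl3* and *Ccl4* had -0.39 and -0.38, and *Ccl8* alone in the list was higher (0.50). Of 7 neutrophil-attracting chemokines and colony-stimulating factors kept, 0 were over 2-fold higher and 1 was lower, *Ppbp*, with 440 and 220 normalized counts (-1.003, interval -1.28 to -0.72). Their median was -0.05, with *Csf1*, the MΦ growth factor, at 482 and 903 normalized counts (0.91), *Cxcl2* at 95635 and 92254 normalized counts (-0.05) and *Cxcl1* at 29983 and 22786 (-0.40).

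**Figure D4:**
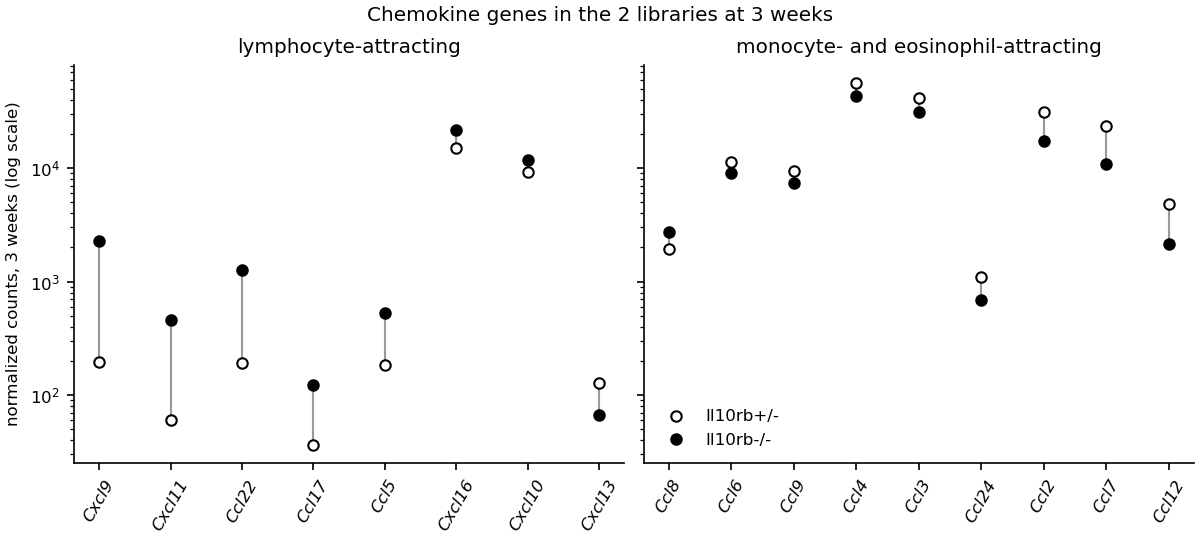
Normalized counts (log scale) of chemokine genes in the *Il10rb*+/- (open) and *Il10rb*-/- (filled) library at 3 weeks, lymphocyte-attracting genes on the left and monocyte- and eosinophil-attracting genes on the right, 1 library each. On the left the filled points lie above the open ones for every gene but *Cxcl13*, and on the right they lie below for every gene but *Ccl8*.

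Among cytokines, the subunits of IL-12 and IL-23 and the IL-1 family differed, while TNF and IL-6 did not differ by more than counting error. Of 4 IL-12 family subunits kept, 2 were over 3-fold higher. *Il12b* (ENSMUSG00000004296), the p40 chain common to IL-12 and IL-23, had 80.3 normalized counts in control and 885 in *Il10rb*-/- MΦs (3.46), and *Il23a*, the p19 chain of IL-23, had 110 and 616 (2.49). *Il27* had 122 and 180 (0.57) and *Ebi3* 1229 and 1329 (0.11). *Il12a*, the p35 chain of IL-12, had 0 and 38 reads. It was at least 4.58-fold higher, yet its 33.4 normalized counts put it below the filter, so it is not among the 10312 genes.

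Of 9 IL-1 family genes kept, 4 were over 2-fold higher and 0 lower, with a median of 0.67. *Il1a* (ENSMUSG00000027399) had 2504 and 10746 normalized counts (2.10) and *Il1b* 77011 and 122372 (0.67). The genes that restrain these cytokines were higher as well: *Il1rn*, the receptor antagonist, had 20687 and 43682 (1.08, interval 1.05 to 1.11), *Il1r2*, the decoy receptor, had 4738 and 9807 (1.05), and *Il18bp*, which binds IL-18, had 195 and 511 (1.39). *Il18* had 399 and 391 (-0.03), and *Il1r1* 56.0 and 41.3 (-0.44). None of the 12 inflammasome genes was over 2-fold apart, and the largest ratio among them was that of *Nlrp3*, with 3806 and 5568 normalized counts (0.55).

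In the list of IL-6 family and TNF genes, 2 of 14 were over 2-fold higher and 0 lower, with a median of 0.14. These were *Tnfsf15*, with 34.1 and 82.7 normalized counts (1.28), and *Lif*, with 217 and 502 (1.21). *Tnf* had 15587 and 15567 (-0.00, interval -0.04 to 0.04) and *Il6* had 674 and 638 (-0.08, interval -0.28 to 0.13). *Osm* had 8498 and 9042 (0.09). The receptors that sense microbes were also near level. Of 20 Toll-like receptor genes and partners, 1 was over 2-fold higher, *Tlr11* with 51.1 and 118 (1.21), and the median was 0.16. *Tlr2* and *Cd14* had 0.53 and 0.54, and *Tlr4* had -0.58. Of 18 NF-kappaB genes, *Traf1*, with 986 and 2165 (1.14), and *Tnfaip2*, with 9671 and 19798 (1.03), were over 2-fold higher and 0 lower (median 0.32).

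The list of the IL-10 receptor and of genes that IL-10 induces had a median of 0.07 over 21 members. Apart from *Il10rb*, only *Il1rn* was over 2-fold apart, and it was higher. *Il10ra*, the other receptor chain, had 8276 and 8971 normalized counts (0.12), *Stat3* had 4504 and 4974 (0.14), *Nfil3* 4237 and 4834 (0.19), and *Il10* 1701 and 1620 (-0.07). *Cd163*, the haemoglobin scavenger receptor, had 4536 and 2901 (-0.64).

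Enzymes of arginine and itaconate metabolism were among the larger shifts. Of 8 genes kept, 4 were over 2-fold higher and 0 lower, with a median of 0.97. That median depended on the filter and the depth, from 0.35 with 50 normalized counts in both libraries to 1.504 with the *Il10rb*-/- library thinned to the reads of the control. *Irg1* (ENSMUSG00000022126, chromosome 14 from 103046977 to 103056573), the enzyme that makes itaconate, had 207 normalized counts in control and 2109 in *Il10rb*-/- MΦs (3.35, interval 3.04 to 3.68). *Ass1*, which regenerates arginine from citrulline, had 31.6 and 346 (3.45, interval 2.66 to 4.37). *Nos2*, the inducible nitric oxide synthase, rested on 5 and 77 reads (2.48, interval 1.19 to 4.14), and *Arg2*, the mitochondrial arginase, had 175 and 506 normalized counts (1.53). *Arg1*, the cytosolic arginase, went the other way with 18 and 3 reads, which is below the filter.

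Genes of hypoxia, glycolysis and angiogenesis had a median of 0.47, with 3 of 20 over 2-fold higher and 0 lower. Beside *Inhba* these were *Vegfa* (ENSMUSG00000023951), the vascular growth factor, with 1231 and 5653 normalized counts (2.20, interval 2.07 to 2.33), and *Slc2a1*, the glucose transporter GLUT1, with 1538 and 3426 (1.16). *Hif1a* had 4081 and 6820 (0.74), and the glycolytic enzymes *Pgk1*, *Aldoa*, *Pkm* and *Ldha* had 0.69, 0.65, 0.54 and 0.27. In the adenosine and cyclic AMP list, 4 of 14 were over 2-fold higher and 0 lower. Beside *Adora2a* these were the receptor *Adora2b*, with 173 and 472 (1.45), and the cyclic AMP-responsive transcription factors *Crem* (1.16) and *Nr4a2* (1.14). *Adora3* had 146 and 115 (-0.34).

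Of 17 oxidase and antioxidant genes, *Slc7a11*, the cystine transporter, with 440 and 1211 normalized counts (1.46), and *Srxn1*, with 409 and 1102 (1.43), were over 2-fold higher. The oxidase subunits *Cybb* and *Cyba* had 0.27 and 0.14. Prostaglandin and leukotriene genes had a median of -0.12. *Ptges*, the inducible prostaglandin E synthase, had 7 and 71 reads (1.87, interval 0.76 to 3.24) and *Ptgs2*, which encodes COX-2, had 20897 and 38822 normalized counts (0.89). *Alox15* had 85.2 and 39.6 (-1.11) and *Ltc4s*, the leukotriene C4 synthase, 990 and 513 (-0.95).

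Surface genes that change as monocytes become resident MΦs did not move as 1 block. Of 5 Ly6 genes kept, *Ly6c2*, *Ly6i* and *Ly6a* were over 3-fold higher and *Ly6d* was over 2-fold lower, with 22 and 30 reads (-1.02, interval -1.86 to -0.16), while *Ly6e* had 0.86. *Ly6a* (ENSMUSG00000075602), which encodes Sca-1 and is induced by interferons, had 139 normalized counts in control and 2169 in *Il10rb*-/- MΦs (3.97, interval 3.59 to 4.37), and *Ly6i* (ENSMUSG00000022586) had 38.9 and 810 (4.38, interval 3.67 to 5.19). *Ly6c2* (ENSMUSG00000022584) had 9.73 and 285 (4.87, interval 3.50 to 6.76). *Ly6c2* and *Ly6i* were below 50 normalized counts in the control and were kept only through the *Il10rb*-/- library. *Ly6d* was kept only through the control. The directions of these genes were thus set by the filter. The median of the list was 3.97 over the 5 genes kept and 2.41 with 50 normalized counts in both libraries. In the monocyte list 4 of 17 genes were over 2-fold higher and 3 lower. *Plac8*, with 513 and 1706 (1.73), *Trem1*, with 402 and 914 (1.19), and *Clec4e*, with 2847 and 6463 (1.18), were higher beside *Ly6c2*. *Ccr2*, the monocyte chemokine receptor, had 20629 and 19378 (-0.09). *Fn1*, with 6970 and 3309 (-1.07), *S100a4*, with 112 and 54.5 (-1.04), and *Chil3*, with 97.3 and 26.4 (-1.88), were lower. RNA from cells of bulk samples is pooled, so fewer cells of a type and less RNA per cell cannot be told apart here or in any group described.

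The genes of gut resident MΦs were slightly lower. Of 27 kept, 8 were higher, 0 were over 2-fold apart and the median was -0.19. *Apoe*, with 105967 and 66793 normalized counts (-0.67, interval -0.68 to -0.65), *Sepp1*, with 69280 and 44406 (-0.64), and *Cx3cr1*, the fractalkine receptor, with 15952 and 10577 (-0.59), had the lowest ratios. *Mertk* and *Fcgr1* had -0.24 and -0.19. Scavenger and efferocytosis receptors had a median of -0.06, and *Marco*, with 26.8 and 134 (2.32, interval 1.44 to 3.35), was the only one of 20 over 2-fold apart.

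The alternative activation list went both ways, with 3 of 16 over 2-fold higher and 3 lower (median -0.37). *Retnla* (ENSMUSG00000061100, chromosome 16 from 48842551 to 48844461), which encodes RELMα, had 38836 normalized counts in control and 14214 in *Il10rb*-/- MΦs (-1.45, interval -1.48 to -1.42), and *Ear2* and *Chil3*, which encodes Ym1, were lower too. *Mrc1*, the mannose receptor, had 19977 and 14106 (-0.50) and *Mgl2* had -0.41. *Tgm2*, transglutaminase 2, had 3387 and 10042 (1.57, interval 1.49 to 1.65), and *Ccl17* and *Pdcd1lg2* were the other 2 higher. *Pdcd1lg2*, which encodes PD-L2, had 31.6 and 96.7 (1.61), and in the list of co-stimulatory and checkpoint ligands *Slamf7*, with 392 and 1150 (1.55), was also over 2-fold higher. *Cd274*, which encodes PD-L1, had 4509 and 8859 (0.97), and *Cd40* and *Cd80* both had 0.88, while *Cd86* had 0.20.

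Complement genes had a median of -0.12, with 3 of 17 over 2-fold higher and 0 lower. *Cfb*, factor B of the alternative pathway, rested on 5 and 78 reads (2.49, interval 1.21 to 4.16), and *C3* had 2239 and 5991 normalized counts (1.42, interval 1.32 to 1.52), and *Itgax*, which encodes CD11c, had 1501 and 3007 (1.00). The C1q chains, typical of tissue MΦs, had -0.10, -0.12 and -0.15. Of 11 antimicrobial and acute-phase genes, 3 were over 2-fold higher and 1 lower. *Chil1* had 258 and 1357 (2.40, interval 2.11 to 2.69) and *Slpi* 253 and 552 (1.13), while *Saa3* had 752 and 320 (-1.23). *Lyz2*, lysozyme, had 186441 and 157181 (-0.25). Of 17 Fcγ receptors and C-type lectins, *Clec4e* was over 2-fold higher and *Clec4b1*, with 499 and 233 (-1.10), lower. Of 15 matrix metalloproteinase genes, *Mmp25* (1.12) was over 2-fold higher and *Adamdec1*, with 635 and 296 (-1.10), lower, and the median was 0.01.

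Some housekeeping programmes shifted a little and others stood still. Heat shock and chaperone genes were higher in 19 of 20 cases (median 0.61), with *Hsph1*, *Bag3* and *Hspb1* over 2-fold at 1.82, 1.12 and 1.10, *Hsp90aa1* at 0.74 and *Hspa5* at -0.04. The cell cycle list was higher in 19 of 20 cases, but by a median of 0.24 and with none over 2-fold, and *Bub1* had 0.80, *Mki67* 0.56 and *Pcna* -0.02. Outside that list, 4 genes of cell division were picked, after their values were seen, from the 78 over 3-fold higher (0.756% of all genes kept). How many other genes of cell division did not change was not counted. Each of the 4 was below 50 normalized counts in the control and was kept only through the *Il10rb*-/- library. Their direction was thus set by the filter. The chromosome motor *Kif4* had 11 and 144 reads (2.24), the cohesin acetyltransferase *Esco2* 13 and 123 (1.77), the cyclin *Ccne1* 14 and 119 (1.62) and the kinetochore gene *Cenph* 7 and 59 (1.61). Immediate early genes, which dissociation of tissue also induces, had a median of -0.25 over 21 genes and none over 2-fold, and *Fos* had 232481 and 183135 normalized counts (-0.34). Genes of cholesterol synthesis and of iron, heme and lipid handling had medians of 0.09 and 0.05, with none of the 17 and 23 members over 2-fold apart.

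The lower side was led, after *Il10rb*, by genes known from other cell types. *Rnase2a* (ENSMUSG00000047222, chromosome 14 from 51255262 to 51256112), an eosinophil-associated ribonuclease, had 569 reads in control and 207 in *Il10rb*-/- MΦs (-2.93, interval -3.16 to -2.70). Its relative *Ear2* had 443 and 386 reads (-1.67, interval -1.87 to -1.47). These genes are also expressed in MΦs and share near-identical copies. In the list of such ribonucleases they were the 2 of 5 over 2-fold lower, and the median was -0.57. Of the defining eosinophil genes, *Prg2* had 0 and 3 reads, *Siglecf* had 87.6 and 106 normalized counts (0.27) and *Ccr3* 17.0 and 13.2. *Alox15*, a lipoxygenase also found in resident MΦs, had 85.2 and 39.6 (-1.11). Of 4 genes of the eosinophil list kept, *Rnase2a*, *Ear2* and *Alox15* were the 3 over 2-fold lower, 0 were over 2-fold higher, and the median was -1.39. The whole list summed to 2653 normalized counts in control and 686 in *Il10rb*-/- MΦs. Without the ribonucleases, the 5 eosinophil genes in the table summed to 190 normalized counts in control and 164 in *Il10rb*-/- MΦs, and 2 of the 5 had 0 reads in the control.

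*Car1*, with 153 and 71 reads (-2.58), *Guca2a*, which encodes the epithelial peptide guanylin, with 59 and 28 (-2.54, interval -3.25 to -1.87), and *Clca1*, a goblet cell product, with 64 and 46 (-1.94, interval -2.52 to -1.38), are genes of the colonic epithelium. Of 12 epithelial markers kept, 2 were over 2-fold lower and 0 higher (median -0.69). The 17 in the table summed to 2051 normalized counts in the control and 1124 in the *Il10rb*-/- library, with none at 0 reads in either. The part of epithelial RNA in these 3 falls was not tested. *Gas1* had 82 and 50 reads (-2.18, interval -2.72 to -1.66) and *Igf1*, the insulin-like growth factor that tissue MΦs make, had 2533 and 1015 normalized counts (-1.32, interval -1.44 to -1.20). *Siglech*, a marker of plasmacytoid dendritic cells that some tissue MΦs share, had 1686 and 583 (-1.53, interval -1.69 to -1.38). *Zfp11*, *Hist1h1d*, *Slc12a5* and *Gfra2* had between 21 and 61 reads in the control and between 11 and 47 in the *Il10rb*-/- library, despite the greater depth of the latter.

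Markers of lymphocytes went several ways. Of 9 B and plasma cell genes kept, 4 were over 2-fold lower, among them *Ms4a1* (-1.66), *Fcrla* (-1.32) and *Cd79a* (-1.18), and 2 were higher. *Jchain*, the joining chain of secreted antibody, had 19 and 236 reads (2.17, interval 1.49 to 2.92) and *Sdc1* had 1.21. The 13 in the table summed to 7284 and 6869 normalized counts. Of the 16 T and NK cell genes in the table, 3 were kept, with ratios from -0.50 to 0.94 and a median of 0.82 (0.16 over those with 50 normalized counts in both libraries), and the 16 summed to 808 and 1213, with 5 at 0 reads in the control and 1 in the *Il10rb*-/- library. *Cd3e* had 2 and 12 reads and *Cd8a* 0 in both, while *Lat*, which like *Il2rb* had 0 reads in the control, had 17 in the *Il10rb*-/- library. None of the 3 was over 2-fold apart. Outside the list, *Klrk1* and *Cd226*, surface receptors of T and NK cells, were picked from the 78 genes after their values were seen. *Klrk1*, which encodes NKG2D, had 33 and 459 reads (2.33, interval 1.82 to 2.89). *Cd226* had 12 and 103 (1.63, interval 0.77 to 2.63) and was kept only through the *Il10rb*-/- library. Such receptors that did not change were not counted. Beside the dendritic cell genes *Ccr7*, with 1029 and 3159 normalized counts (1.62, interval 1.47 to 1.77), *Xcr1* (1.27) and *Kit*, with 114 and 541 (2.24, interval 1.81 to 2.70), the defining *Zbtb46* and *Flt3* had -0.59 and -0.53. *Hdc*, which makes histamine, had 13 and 176 reads (2.29, interval 1.48 to 3.23), while *Cma1*, a mast cell protease, had 4 and 0. Of 15 neutrophil genes in the table, 3 were kept and 5 had 0 reads in each library, with sums of 4388 and 3856, and stromal, endothelial and glial genes summed to 5332 and 5455 (median -0.01). None of the 4 red blood cell genes in the table was kept. The part of other cell types in the ratios of shared genes such as *Kit*, *Jchain*, *Il2rb* and *Klrk1* was not tested.

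The same genes were then read at the other ages, where other mice were used and no library is shared. The 1-week libraries were each made from the pooled colons of several mice, per the study's methods, while those of 3 and 12 weeks came from 1 mouse. The Y-linked genes together had 1123 reads in the 1-week control and 6 in the 1-week *Il10rb*-/- library, so the libraries of that pair differed in their share of RNA from males, and the part of sex in the 1-week ratios was not tested. Among the 78 genes that were higher past 3-fold, 56 (71.8%) were over 3-fold higher at 12 weeks and 5 (6.41%) over 3-fold lower, against 314 (3.04%) and 802 (7.78%) of all 10312 genes. At 1 week, 12 (15.4%) were over 3-fold higher and 3 (3.85%) lower, against 137 (1.33%) and 38 (0.369%). The median log2 ratio of the 78 genes was 2.18 at 3 weeks, 0.35 at 1 week and 2.60 at 12 weeks. Of the 27 genes over 3-fold lower, 16 (59.3%) were over 3-fold lower at 12 weeks and 3 (11.1%) higher, and at 1 week 6 (22.2%) were lower and 6 higher. The deleted gene *Il10rb* is itself counted among the 27, the 16 and the 6 lower at 1 week. No test of the difference between ages can be made with these libraries.

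The groups differed in how they stood at the other ages. The GTPase list had medians of -0.56 at 1 week, 1.07 at 3 weeks and 2.46 at 12 weeks, and 3, 17 and 17 of its members were higher. *Nlrc5* followed the same order, with 0.37, 2.02 and 2.91. MHC class I genes had medians of 0.08, 0.67 and 1.39, and antiviral genes -0.51, 0.55 and 0.97. *Vegfa* was past 3-fold at each age, with 1.97, 2.20 and 2.79, and *Tgm2* had 1.52, 1.57 and 2.21. *Inhba* had 2.32, 4.12 and 6.07, and *Irg1* 1.38, 3.35 and 5.18.

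*Il12b*, *Ccl22*, *Ccl17*, *Adora2a* and *Slamf7* were furthest apart at 3 weeks. So were leading genes of other groups, with log2 ratios given in the order 1, 3 and 12 weeks. *H2-Q8* had 0.08, 3.45 and 2.33, and *Ly6a* -0.65, 3.97 and 2.39. *Serpina3f* had 1.55, 3.37 and 1.89, and *Ly6c2* -0.40, 4.87 and 4.19. *Il12b* had log2 ratios of 0.29, 3.46 and 0.75 at 1, 3 and 12 weeks, *Ccl22* had 0.43, 2.75 and 1.09, *Ccl17* 0.90, 1.73 and -0.08, and *Adora2a* 0.40, 4.71 and 2.71. *Slamf7* had -0.10, 1.55 and -0.51. The reads behind the 3-week control were few for *Il12b* (33), *Ccl17* (15), *Adora2a* (4) and *Ly6c2* (4). *Il12b* had 885 normalized counts at 3 weeks and 2056 at 12 weeks in *Il10rb*-/- MΦs. In the control it had 80.3 and 1225, so its ratio was smaller at 12 weeks although both values were higher. The monocyte-attracting CC chemokines were instead furthest apart at 12 weeks, with medians of 0.17, -0.39 and -2.33. *Ccl2* alone had -0.21, -0.85 and -4.22. Resident MΦ genes had medians of -0.33, -0.19 and -1.82. *Retnla* had 0.50, -1.45 and -7.27, and *Rnase2a*, with 0 and 3 reads at 1 week and thus no fold there, had -2.93 and -6.55 at the later ages. Heat shock and cell cycle genes, higher at 3 weeks, had medians of -0.44 and -1.62 at 12 weeks.

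**Figure D5:**
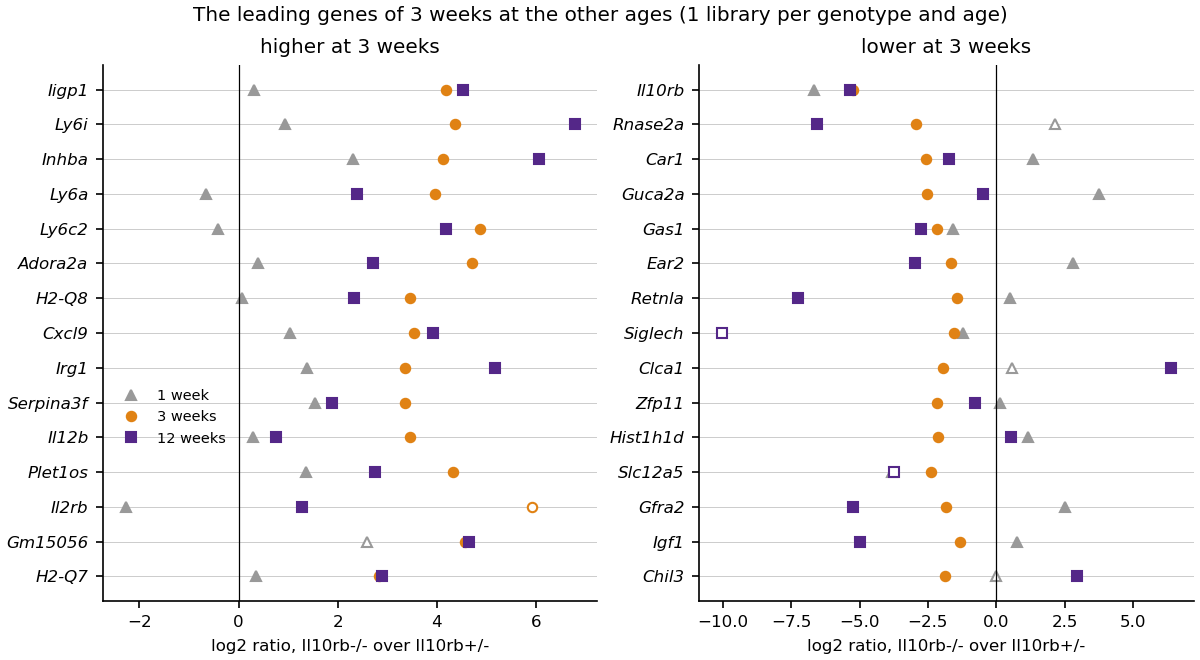
Log2 ratio (*Il10rb*-/- over *Il10rb*+/-) of the leading genes of 3 weeks at 1 week (triangles), 3 weeks (circles) and 12 weeks (squares), 1 library per genotype and age; open symbols have 0 reads in at least 1 of the libraries and are no measured fold. On the left the squares lie to the right of 0 for all 15 genes, and the triangles lie nearer to 0 than the circles for all 15, while on the right *Clca1* and *Chil3* have squares far to the right of 0.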

How the data were processed

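RNA was sequenced from sorted colonic P3/P4 MΦs of 6 groups, 1 library each, grouped by the genotype and age in the labels. The authors trimmed reads with Trim Galore, mapped them with TopHat to mm10, used HTSeq for gene counts and applied DESeq size factors. The deposited values are this normalized signal, with a count of 0 shown as 1, without scaling by gene length or to a common total. Tool versions, annotation and strand setting are not given in the sources used here. The labels name a SMART-Seq kit and the study's methods oligo dT beads.

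Apart from the value 1, all values of a library were whole multiples of a step (tolerance 0.01), 2.43 normalized counts per read in the 3-week control and 0.879 in the 3-week knockout, so reads were read back. Log2 ratios were taken on the deposited values. Because each genotype has 1 library at 3 weeks, no test was made and no count model was fitted. The 95% intervals (exact, Clopper-Pearson) start from the share of the reads of a gene found in the knockout. Against 0 reads a fold is a bound from 3 reads. The interval and threshold steps were tested on simulated data. The genes named were *Il10rb*, the study's mediators, the 15 genes on each side ranked by the interval end nearest 0, and members of the lists. Genes named as neighbours, in the promoter section, outside a list, or as *Plet1*, *Zfp580* and *Slfn4* were chosen after their values were seen. The 36 pathway lists, 10 cell type lists and all members were chosen with earlier results of these data known. Promoters are from RefSeq on GRCm38.p6, and coordinates from GENCODE on GRCm38, where 14085 of 14097 genes were found. Some members of the lists are not reported here by name. Alternatives were other filters, scalings, a pseudocount of 10 and thinning to equal depth. Scripts ran in Python 3.11.15 with pandas 2.3.3, matplotlib 3.10.9, scipy 1.17.1 and numpy 2.4.6.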

Additional observations from a re-analysis of the deposited data

Results flagged for a closer look

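Of the leading genes, 7 were past 2-fold in opposite directions at 3 weeks and at another age, with an interval at that age that excluded 0. *Car1*, with 6 and 10 reads at 1 week, and *Rnase2a*, with 0 and 3, are left out because their intervals there included 0. The differences between ages were not tested, since each age has 1 library per genotype. *Il2rb*, with 0 and 69 reads at 3 weeks, had 22 reads in control and 3 in *Il10rb*-/- MΦs at 1 week, a log2 ratio of -2.28 (interval -4.66 to -0.54). *Guca2a*, lower at 3 weeks (-2.54), had 2 and 18 reads at 1 week (3.77, interval 1.70 to 6.92). *Ear2* (-1.67 at 3 weeks) had 27 and 125 reads at 1 week (2.81, interval 2.20 to 3.46). *Gfra2* (-1.84) had 5 and 19 reads at 1 week (2.52, interval 1.05 to 4.30), and *Hist1h1d* (-2.14) had 34 and 51 (1.18, interval 0.53 to 1.85). At 12 weeks, *Clca1* (-1.94 at 3 weeks) had 1 and 63 reads (6.41, interval 3.88 to 11.7). *Chil3* (-1.88 at 3 weeks) had 134 and 774 reads at 12 weeks (2.96, interval 2.69 to 3.24) and 0 in both libraries at 1 week.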

How the results depend on the processing

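The counts of genes over 3-fold depended on the filter. The 78 higher genes became 148 with 50 normalized counts in any of the 6 libraries, 40 with 50 in both 3-week libraries and 472 with no filter beyond 1 read, and the 27 lower genes became 71, 3 and 423. The lower genes also became 11 with a pseudocount of 10, 11 with a threshold of 100, and 41 with the knockout thinned to the reads of the control. Chosen after seeing the data, the whole interval past 3-fold left 38 higher and 5 lower. The median of the monocyte- and eosinophil-attracting CC chemokines became -0.53 with the filter over any of the 6 libraries or with none. Single gene values were compared only under the scalings and the pseudocount of 10, and not under the filters or the thinning. Of 152 such values of 38 genes, 149 stayed inside their interval, 3 moved and 0 reversed. Each scaling shifts all genes by the same small amount, and a reversal was counted only for ratios past 2-fold. These counts therefore say little about the effect of the shallow control. Of 423 list medians, 398 stayed and 25 moved. A median was counted as staying if it shifted by no more than the median half-width of its members' counting intervals. That allowance is wide for lists with few reads, and the scalings shift every median by the same small amount. The 398 therefore say little about lists with few reads. Among those that moved, the neutrophil-attracting chemokines went from -0.05 to 0.27 and the IL-12 family to 2.49 with the filter over any of the 6 libraries, the arginine list from 0.97 to 0.35 with 50 in both libraries and to 1.504 with the knockout thinned, and the Ly6 list to 1.88 with no filter. Scaling by total reads shifted all genes by -0.04 and TMM scaling by -0.00. No paired analysis was possible because each genotype has 1 library at 3 weeks, and for the same reason no replicate could be left out.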
